A study of Danio rerio with 13 samples.

Results

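Pancreatic endocrine cells (PECs) of zebrafish embryos were compared between pax6b mutants and wild types. The comparison uses 6 of the 13 samples of the series, all PEC samples: 3 wild-type preparations and 3 preparations homozygous for the null allele pax6b sa0086. The other 7 samples are enteroendocrine cells (EECs) of the gut at 4 days post-fertilization, 4 of wild type and 3 of the same mutant. They enter only the test of how the mutant effect differs between tissues, the EEC effects given with it and an alternative fit of both tissues. The PEC donors were of the AB strain, were taken at 27 hours post-fertilization (hpf) and carried the transgene Tg(pax6b:GFP), in which regulatory sequence of pax6b drives the green fluorescent protein (GFP). For each preparation the dorsal pancreatic bud was dissected from about 200 embryos, and the GFP+ cells were purified by consecutive rounds of fluorescence-activated cell sorting (FACS). Mutants came from an incross of heterozygous carriers and were recognised by an absent or reduced lens; neither the labels nor the methods say that the wild types came from the same clutches. The 3 preparations of a group were made independently, each from pooled embryos.

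Pax6 is a transcription factor with a paired domain and a homeodomain that acts in the eye, the brain and the endocrine pancreas. In the islet, alpha cells make glucagon, beta cells insulin, delta cells somatostatin and epsilon cells ghrelin, and in mice Pax6 is known to be needed for normal numbers of the glucagon, insulin and somatostatin cells. The dorsal bud of the zebrafish pancreas gives rise to the first islet within about a day of development. Each sample here is a mixture of all GFP+ cells of the bud, so fewer cells of a type and less RNA per cell of that type cannot be told apart.

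Between 24326163 and 61895597 reads were counted on genes per sample, and between 24051 and 25877 genes had at least 1 count. Levels are given as normalised CPM, the counts of a gene relative to the library total (counts per 1e6) after scaling by the TMM method, and 3 counts, taken as the detection floor, correspond to 0.0442 to 0.126 normalised CPM. Wild-type preparation 3 stood apart from the other wild types, with Spearman correlations over genes of 0.940 and 0.943 with them against 0.973 between preparations 1 and 2. Every correlation between a mutant and a wild type was lower, from 0.899 to 0.928. Mutant preparation 2 had more keratin RNA, with 381.5 normalised CPM summed over 6 epidermis markers against 9.15 to 29.6 in the other 5 samples. The 9 lens and eye markers summed to at most 3.69 normalised CPM in any sample. The 12 exocrine markers summed to 41.0 to 72.2 in wild type and 15.6 to 18.6 in mutants. Of 6 tested exocrine markers, CPB1 and amy2a fell (33.3%, against 5.74% of all tested genes). The fall of amy2a did not pass the test without wild-type preparation 1 (adjusted p = 0.109). The elastase and chymotrypsin genes were near 0 in both groups. The 13 neuronal markers, some of which endocrine cells also express, summed to 295 to 438 normalised CPM in wild type and 259 to 315 in mutants. Of the 11 tested, elavl4 fell (9.09%, against 5.74% of all tested genes). Blood markers summed to 241, 243 and 32.5 normalised CPM in wild type and 105, 52.4 and 139 in mutants. The pan-endocrine markers summed to 36637 to 40526 normalised CPM in wild type and 32774 to 39687 in mutants, and the part of neuronal, epidermal, exocrine and blood RNA in the results was not tested.

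The targeted gene pax6b (ENSDARG00000045936) was transcribed in all 6 samples. It was at 5811, 4487 and 2288 normalised CPM in wild type and 3437, 2980.2 and 6928 in mutants, and the groups overlapped (log2 fold change 0.08, standard error 0.39, adjusted p = 0.934). All adjusted p-values of single genes come from the quasi-likelihood test of edgeR and are adjusted over all tested genes by the method of Benjamini and Hochberg. The sign of this difference turned without wild-type preparation 3 (-0.21) or without mutant preparation 3 (-0.38). The level of the transcript therefore does not check the genotype labels; the methods state that the null allele was found in all pax6b reads of the mutants. The paralog pax6a (ENSDARG00000103379) was at 3.63, 2.85 and 1.71 normalised CPM in wild type and rose to 23.3, 18.7 and 15.84 in mutants (log2 fold change 2.83, standard error 0.39, adjusted p = 6.54e-04). All mutants lay above all wild types for pax6a.

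The mutant PECs differed from the wild types in both directions, by similar numbers of genes. At an adjusted p under 0.1, the false discovery rate used in the study, 2089 of 18698 tested genes (11.2%) were called: 1015 were higher in mutants (5.43% of the tested genes) and 1074 were lower (5.74%). The samples of the groups did not overlap for 1959 of the called genes. Overlap was examined among called genes only, where a call makes separation likely, so this count gives no support beyond the calls. At least a 4-fold change was estimated for 452 of the genes that rose and 487 of those that fell, and at least 16-fold for 69 and 112. The median log2 fold change over all tested genes was 0.017. The number of calls depended on single libraries: it was 1252 without wild-type preparation 1, 1270 without wild-type preparation 2, 3873 without wild-type preparation 3, 1148 without mutant preparation 1 and 1361 without mutant preparation 2. DESeq2 called 2940 of 21344 genes (13.8%), among them 2068 of the 2089. A set of 898 genes, 482 lower and 416 higher, was called whichever of the 6 libraries was left out.

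**Figure D1:**
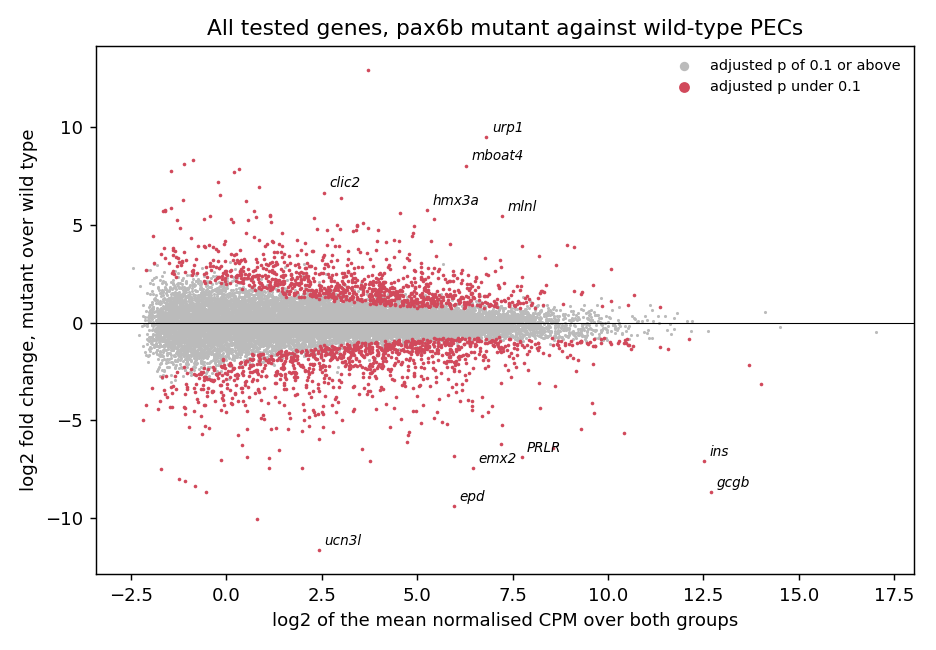
Log2 fold change of each of the 18698 tested genes, mutant over wild-type PECs, against the log2 of its mean normalised CPM. Red points are the 2089 genes with an adjusted p under 0.1; gcgb and ins combine a high level with log2 fold changes of -8.68 and -7.09, and the fitted values of genes at 0 in a whole group, such as ucn3l, depend on the prior count.

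Among well expressed genes with a symbol, the largest falls joined 3 peptide hormones with genes of other kinds. The 12 were ucn3l, epd, gcgb, emx2, slc30a2, ins, PRLR, cyp1c1, NTF3, pcxb, sall1a and arl3l1 (a symbol in capitals is that of the human ortholog in the gene list used). The secreted glycoprotein gene epd (ependymin) had 60.4, 198 and 116 normalised CPM in wild type and 0.0262, 0 and 0.532 in mutants (log2 fold change -9.39, standard error 0.86, adjusted p = 2.30e-05). The homeobox gene emx2, which patterns the forebrain in mice, fell from 60.6, 247 and 218 to 0.654, 1.26 and 1.16 normalised CPM (log2 fold change -7.42, standard error 0.57, adjusted p = 5.17e-06). The prolactin receptor gene PRLR was at 493, 374 and 402 normalised CPM and at 4.26, 2.41 and 4.03 in mutants, an estimated 118-fold fall. The 12 were taken by fold change from called genes whose groups did not overlap. The separation of the groups is thus a condition of the choice and not a further result.

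The zinc transporter gene slc30a2 went from 11.7, 24.2 and 44.6 normalised CPM in wild type to 0.34, 0.115 and 0.0998 in mutants (log2 fold change -7.09, standard error 0.65, adjusted p = 2.34e-05). The zinc finger gene sall1a fell from 264, 314 and 291 to 3.38, 3.29 and 5.29 normalised CPM (log2 fold change -6.18, standard error 0.33, adjusted p = 5.80e-07), and the spread within each group was small beside this difference. The log2 fold changes of the other members of the 12 that are not hormones were -6.81 for cyp1c1, a cytochrome P450, -6.43 for the neurotrophin gene NTF3, -6.39 for the pyruvate carboxylase gene pcxb and -6.08 for arl3l1, a small GTPase gene.

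The 12 largest rises were of si:ch1073-190k2.1, urp1, mboat4, clic2, zbtb32, hmx3a, atp8b3, mlnl, FAM135B, cntnap5l, atcayb and si:dkey-167i21.2. The first had no count in any wild type and 17.9, 32.7 and 28.2 normalised CPM in mutants, at least 304-fold higher than the floor of 3 counts per library. The gene urp1 encodes a peptide of the urotensin II family. It was at 0.0893, 0.922 and 0.118 normalised CPM in wild type and at 239.8, 149 and 286 in mutants (log2 fold change 9.47, standard error 0.74, adjusted p = 5.31e-06). The enzyme encoded by mboat4 attaches the fatty acid that activates ghrelin, and its transcript rose from 0.327, 1.30 and 0.309 to 121, 87.1 and 255 normalised CPM (log2 fold change 8.02, standard error 0.65, adjusted p = 6.60e-06). The homeobox gene hmx3a rose from 1.43, 1.68 and 1.13 to 90.4, 65.6 and 68.2 normalised CPM (log2 fold change 5.74, standard error 0.34, adjusted p = 1.06e-06). The 12 rises were chosen by the same rule as the falls, so the separation of the groups is again a condition of the choice.

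The chloride channel family gene clic2 had 0.0298, 0 and 0.236 normalised CPM in wild type and 12.22, 10.8 and 12.18 in mutants. The contactin-associated protein gene cntnap5l had 0.595, 0.629 and 0.781 and 20.1, 29.0 and 20.6, and the phospholipid flippase gene atp8b3 had 1.40, 1.13 and 0.398 and 52.1, 52.3 and 33.0 normalised CPM. Their log2 fold changes were 6.64, 5.10 and 5.59.

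Peptide hormone genes changed in both directions, with more of them lower in mutants. Of 51 listed genes 46 were matched and 34 were tested, and 15 of these were lower and 7 higher in mutants (44.1% and 20.6%, against 5.74% and 5.43% of all tested genes). Their median log2 fold change was -1.05, against 0.017 over all tested genes. The glucagon gene gcgb (ENSDARG00000040907) was at 12934, 11748 and 14952 normalised CPM in wild type and 18.0, 44.6 and 34.3 in mutants, an estimated 409-fold fall (log2 fold change -8.68, standard error 0.46, adjusted p = 5.80e-07). The insulin gene ins (ENSDARG00000035350) was at 6320.4, 15924 and 12436 normalised CPM in wild type and 88.2, 61.8 and 105 in mutants, an estimated 136-fold fall (log2 fold change -7.09, standard error 0.46, adjusted p = 1.70e-06). Some RNA of both genes was thus still counted in every mutant sample. The peptide of ucn3l, urocortin 3, is made by beta cells in mice and by beta and alpha cells in humans. Its gene had 8.04, 10.1 and 14.3 normalised CPM in wild type and no count in any mutant, so that it was at least 111-fold lower against the floor of 3 counts per library (adjusted p = 1.52e-05).

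The somatostatin genes sst1.1, sst1.2 and sst2 fell, by unequal amounts. The gene sst1.1 went from 439, 214 and 1067 normalised CPM in wild type to 28.7, 15.97 and 39.2 in mutants (log2 fold change -4.36, standard error 0.55, adjusted p = 3.24e-04). For sst1.2 the values were 37212, 28146 and 23674 in wild type and 3270.1, 2391 and 4353 in mutants (log2 fold change -3.15, standard error 0.34, adjusted p = 8.91e-05). For sst2 they were 28674, 22042 and 14028 and 4896, 4269 and 5181 normalised CPM, an estimated 4.51-fold fall (log2 fold change -2.17, standard error 0.32, adjusted p = 9.61e-04). No mutant reached the lowest wild type for any of the 3 genes. In the fit of 12 samples of both tissues sst1.1 lost its call (adjusted p = 0.116). Wild-type preparation 3 had the most sst1.1 and the least sst2 among the wild types.

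Other peptide genes that fell were those of neuromedin B, peptide YY and neuropeptide B. The gene nmba, listed among the delta cell markers, was at 1409, 1347 and 1582 normalised CPM in wild type and 76.0, 69.6 and 107 in mutants (log2 fold change -4.10, standard error 0.30, adjusted p = 4.05e-06). The gene pyya went from 81.9, 119.7 and 93.8 to 2.25, 2.72 and 3.79 normalised CPM (log2 fold change -5.08, standard error 0.34, adjusted p = 2.03e-06), while its paralog pyyb, at 19.5, 25.6 and 37.6 and 15.4, 13.6 and 16.2, did not pass the test (log2 fold change -0.87, standard error 0.31, adjusted p = 0.123). The neuropeptide B gene npb had 7.38, 16.7 and 38.2 normalised CPM in wild type and 1.57, 2.11 and 1.23 in mutants (log2 fold change -3.67, standard error 0.56, adjusted p = 0.00119). The 2 prepronociceptin genes were also lower: pnocb at 4.70, 15.3 and 27.4 against 0.549, 0.306 and 0.632 normalised CPM and pnoca at 33.1, 14.6 and 312 against 8.27, 7.08 and 15.7. The high pnoca value of wild-type preparation 3 set much of that mean, the groups overlapped, and its call was lost without wild-type preparation 1 (0.142), mutant preparation 1 (0.183) or mutant preparation 2 (0.221), the adjusted p standing in brackets here and in all such statements.

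The calcitonin gene calca and the betacellulin gene btc, an epidermal growth factor family ligand, fell less, with log2 fold changes of -1.47 and -1.13. Both calls depended on single libraries: calca lost its call without wild-type preparation 1 (0.208) or mutant preparation 1 (0.167), and btc without mutant preparation 1 (0.105). Of the 15 genes that fell, 11 kept their call whichever library was left out.

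**Figure D2:**
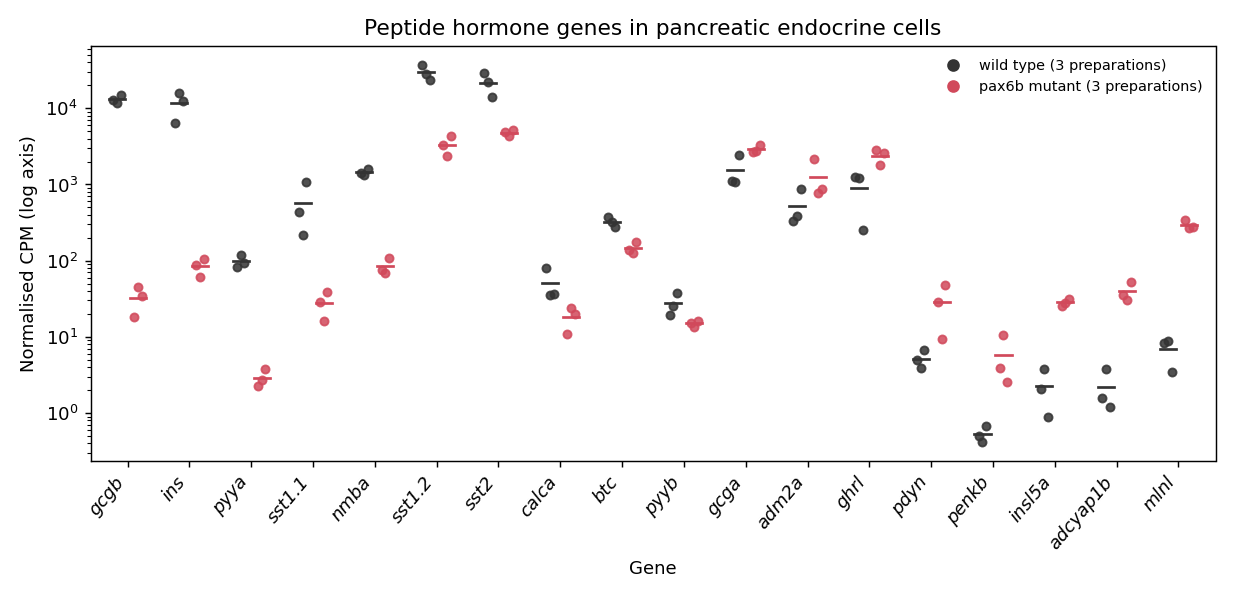
Normalised CPM (log axis) of 18 peptide hormone genes in each of the 3 wild-type and 3 mutant PEC preparations, with a bar at each group's mean. The genes are ordered by their log2 fold change; gcgb and ins lie far lower in every mutant, pyyb, gcga and adm2a did not pass the test, and mlnl lies far higher in every mutant.

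Among the listed hormone genes that rose was that of motilin-like. The gene mlnl (ENSDARG00000092916) was at 8.24, 8.80 and 3.48 normalised CPM in wild type and 338, 266 and 273 in mutants, an estimated 43.0-fold rise (log2 fold change 5.43, standard error 0.40, adjusted p = 4.05e-06). The PACAP gene adcyap1b rose from 1.58, 3.77 and 1.19 to 35.6, 30.7 and 53.2 normalised CPM (log2 fold change 4.22, standard error 0.47, adjusted p = 1.14e-04), and the insulin-like peptide gene insl5a from 2.05, 3.77 and 0.899 to 25.6, 27.7 and 31.7 (log2 fold change 3.69, standard error 0.48, adjusted p = 3.69e-04). The mutants were well above the wild types for all 3 genes. The paralog insl5b, with a mean under 5 normalised CPM in both groups, fell.

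The opioid precursor genes pdyn and penkb rose. The prodynorphin gene pdyn was at 4.94, 3.90 and 6.75 normalised CPM in wild type and 28.7, 9.46 and 47.7 in mutants (log2 fold change 2.46, standard error 0.50, adjusted p = 0.0081). The proenkephalin gene penkb was at 0.506, 0.419 and 0.678 and 3.95, 10.7 and 2.56 normalised CPM (log2 fold change 3.39, standard error 0.61, adjusted p = 0.00384). The appetite peptide gene agrp had at most 1 count in any wild type and 3.48, 0.345 and 3.09 normalised CPM in mutants; no fold change is given for it, and it is named after its values were seen. The relative spread among the mutants was wider for these 3 genes than for mlnl.

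Ghrelin itself rose by a small and less certain amount. The gene ghrl was at 1254, 1212 and 250.4 normalised CPM in wild type and 2841, 1793 and 2564 in mutants (log2 fold change 1.41, standard error 0.47, adjusted p = 0.0946). The groups did not overlap, but wild-type preparation 3 was far below the other wild types. The call was lost without wild-type preparation 1 (0.106), wild-type preparation 2 (0.12), mutant preparation 1 (0.265), mutant preparation 2 (0.127) or mutant preparation 3 (0.169). Without wild-type preparation 3 it was kept (adjusted p = 0.0319).

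The second glucagon gene, gcga (ENSDARG00000079296), did not fall with gcgb. It was at 1105, 1091 and 2421 normalised CPM in wild type and 2643, 2753 and 3263 in mutants, and each mutant was above each wild type, yet the difference did not pass the test (log2 fold change 0.91, standard error 0.33, adjusted p = 0.131). Without wild-type preparation 3, the wild type nearest to the mutants, its adjusted p was 0.00298. The adrenomedullin 2 gene adm2a had 336, 385 and 865 normalised CPM in wild type and 2167, 775 and 873 in mutants, and these ranges overlapped (log2 fold change 1.27, standard error 0.44, adjusted p = 0.11).

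In sum over the library, the share of all counts that fell on the 46 peptide hormone genes was 7.91%, 6.75% and 7.91% in the wild types and 1.82%, 1.37% and 1.87% in the mutants. The mean was 7.52% ± 0.67 in wild type and 1.69% ± 0.28 in mutants (SD, n = 3), and the wild-type share was 4.46 times the mutant share. A two-sided exact permutation test gave p = 0.1, the smallest value that 3 against 3 samples allow. With the 7 genes ins, gcga, gcgb, sst1.1, sst1.2, sst2 and ghrl alone, the shares were 7.27% ± 0.62 and 1.47% ± 0.24.

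The transcription factors known from endocrine cell differentiation split into both directions. Of 58 listed genes 56 were matched and 48 were tested, with 13 lower and 12 higher in mutants (27.1% and 25%, against 5.74% and 5.43% of all tested genes). The largest fall was of pdx1 (ENSDARG00000002779), a homeobox gene of the pancreas and of beta cells. It was at 1143, 1275 and 1234 normalised CPM in wild type and 23.0, 19.3 and 41.8 in mutants, an estimated 43.4-fold fall (log2 fold change -5.44, standard error 0.37, adjusted p = 2.24e-06). The homeobox gene nkx6.2 (ENSDARG00000104735), whose Nkx6 family acts in beta cell formation, was at 323, 286 and 269.6 and 10.6, 6.74 and 5.62 normalised CPM (log2 fold change -5.25, standard error 0.34, adjusted p = 1.70e-06). Both genes were even across the wild types and low in each mutant. The SoxC gene sox4a fell from 333, 406 and 187 to 54.4, 51.1 and 29.9 normalised CPM (log2 fold change -2.77, standard error 0.35, adjusted p = 3.26e-04), while its paralog sox4b was higher in mutants, at 30.5, 18.7 and 24.3 and 57.7, 87.3 and 43.7 (log2 fold change 1.36, standard error 0.32, adjusted p = 0.0186). The call of sox4b was lost without wild-type preparation 2 (0.102) or mutant preparation 2 (0.104).

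Further homeobox genes and a T-box gene fell as well. The homeobox gene HHEX, known from delta cells in mice, was at 66.4, 62.0 and 121 normalised CPM in wild type and 22.7, 16.7 and 23.3 in mutants (log2 fold change -1.99, standard error 0.32, adjusted p = 0.00173). The caudal-type homeobox gene cdx4 was at 204, 190.3 and 93.3 and 38.9, 33.5 and 75.7 normalised CPM (log2 fold change -1.72, standard error 0.37, adjusted p = 0.0124). The T-box gene tbx2b, on the delta marker list, was at 36.7, 32.4 and 86.9 and 7.04, 11.4 and 7.65 (log2 fold change -2.58, standard error 0.40, adjusted p = 0.00145). All mutants were below all wild types for these genes, although mutant preparation 3 came close to wild-type preparation 3 for cdx4.

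Smaller falls were called for the homeobox genes cdx1b (log2 fold change -1.64) and hnf1ba (-1.20), and these held whichever library was left out. Those of hnf4a (-1.14), meis2a (-1.09), fev (-1.09), foxo1a (-1.03) and mnx1 (-0.90) did not. For mnx1, a homeobox gene of beta cell and motor neuron development, the values were 146, 148 and 88.9 normalised CPM in wild type and 72.2, 72.4 and 59.9 in mutants. The call of mnx1 was lost without wild-type preparation 1 (0.234), wild-type preparation 2 (0.266), mutant preparation 1 (0.19), mutant preparation 2 (0.151) or mutant preparation 3 (0.118). That of the nuclear receptor gene hnf4a was lost without wild-type preparation 1 (0.192), mutant preparation 1 (0.218) or mutant preparation 2 (0.13), and that of the homeobox gene meis2a without wild-type preparation 1 (0.235), wild-type preparation 2 (0.118), mutant preparation 1 (0.307) or mutant preparation 3 (0.145). The call of the ETS factor gene fev was lost without wild-type preparation 1 (0.123), mutant preparation 1 (0.164) or mutant preparation 2 (0.127), and that of the forkhead gene foxo1a without wild-type preparation 1 (0.231), wild-type preparation 2 (0.144), mutant preparation 1 (0.208) or mutant preparation 2 (0.125). With these losses the count of falls was 8 without wild-type preparation 1 or mutant preparation 1.

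The zinc finger gene gata6, a regulator of pancreas development, rose most among the listed factors, from 4.23, 1.89 and 5.08 normalised CPM in wild type to 60.4, 35.5 and 19.9 in mutants (log2 fold change 3.36, standard error 0.47, adjusted p = 6.88e-04). The homeobox gene arxa (ENSDARG00000058011), which promotes the alpha cell fate, rose from 41.8, 40.6 and 92.7 to 229.8, 207 and 224 normalised CPM (log2 fold change 1.91, standard error 0.33, adjusted p = 0.00319). The zinc finger gene insm1b was at 86.4, 88.8 and 93.3 normalised CPM in wild type and at 449, 378 and 170.4 in mutants (log2 fold change 1.89, standard error 0.34, adjusted p = 0.00353), its paralog insm1a at 1298, 739 and 810.3 and 1064, 1379 and 1002 (log2 fold change 0.28, standard error 0.29, adjusted p = 0.655). The first 3 genes had mutants clear of the wild types, although mutant preparation 3 was the lowest mutant for gata6 and insm1b, and insm1a overlapped.

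The winged-helix gene rfx6, a regulator of islet cell formation, rose from 53.5, 64.5 and 39.5 to 155, 112 and 116 normalised CPM (log2 fold change 1.28, standard error 0.28, adjusted p = 0.0116). The proneural gene ascl1a, which the study describes in secretory precursors of the gut, was at 2.98, 2.85 and 6.03 and 16.8, 8.92 and 16.9 normalised CPM (log2 fold change 1.84, standard error 0.43, adjusted p = 0.0179). Both kept their calls whichever library was left out. Rises of about 1 on the log2 scale were called for foxa2 (1.26), MEIS1 (1.19), myt1b (1.09), pbx1a (1.01), nkx2.2a (0.97) and neurod1 (0.77). The call of the forkhead gene foxa2 was lost without wild-type preparation 2 (0.104), and that of the homeobox gene MEIS1 without wild-type preparation 1 (0.191), wild-type preparation 2 (0.228), mutant preparation 1 (0.153) or mutant preparation 2 (0.195). The zinc finger gene myt1b lost its call without wild-type preparation 1 (0.198), mutant preparation 1 (0.209) or mutant preparation 2 (0.213), and the homeobox gene pbx1a without wild-type preparation 2 (0.119). The homeobox gene nkx2.2a lost its call without wild-type preparation 1 (0.128), wild-type preparation 2 (0.168), mutant preparation 1 (0.139) or mutant preparation 3 (0.131), and the proneural gene neurod1 without wild-type preparation 1 (0.245), wild-type preparation 2 (0.361), mutant preparation 1 (0.24), mutant preparation 2 (0.166) or mutant preparation 3 (0.145). The count of rises was 6 without wild-type preparation 2.

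Among the factors that did not pass the test were isl1, needed by all islet cell types in mice, at 1553, 1299 and 1842 normalised CPM in wild type and 1574, 1630.0 and 2096 in mutants (adjusted p = 0.771). The paired homeobox gene pax4 was at 275, 198 and 79.0 and 283, 188 and 447 normalised CPM, with an adjusted p of 0.358. For isl1 the groups overlapped, and for pax4 the spread within each group was about as wide as the difference.

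**Figure D3:**
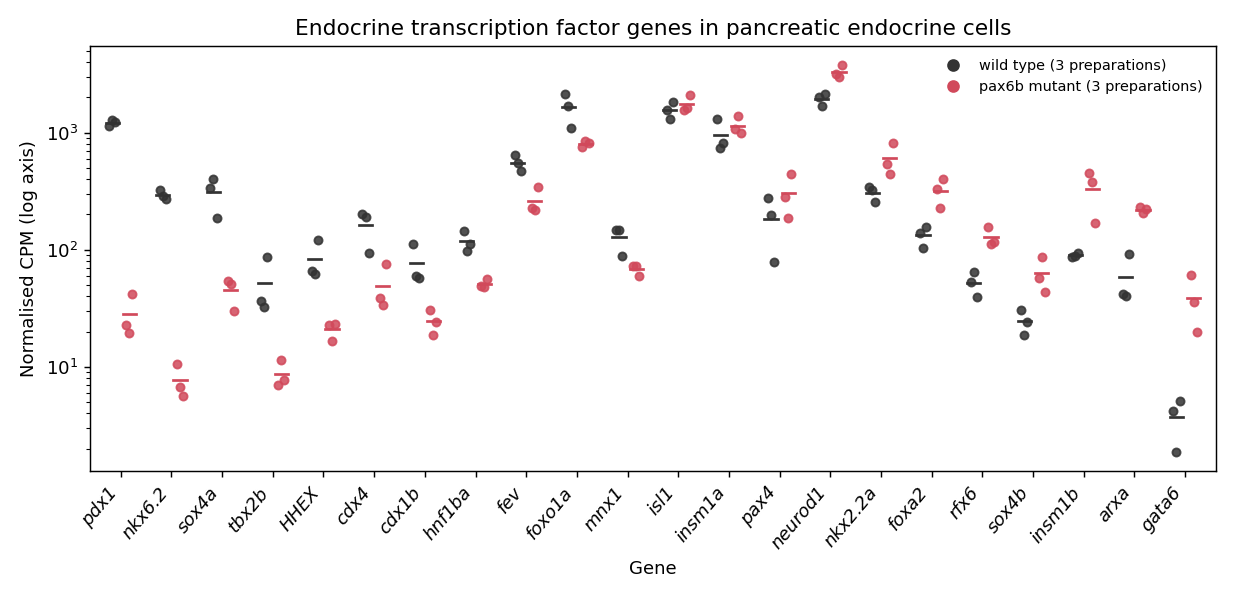
Normalised CPM (log axis) of 22 endocrine transcription factor genes in each of the 3 wild-type and 3 mutant PEC preparations, with a bar at each group's mean, ordered by log2 fold change; isl1, insm1a and pax4 did not pass the test. The mutants lie lowest against the wild types for pdx1 and nkx6.2 and highest for gata6.

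The marker lists of the islet cell types, which the study took from earlier RNA-seq work on other samples, moved in different directions. Of the 47 beta cell markers tested, 20 fell and 1 rose (42.6% and 2.13%, with a median log2 fold change of -0.48). Of the 50 delta cell markers, 18 fell and 4 rose (36% and 8.0%, median -0.38). Of the 46 epsilon cell markers, 20 rose and 1 fell (43.5% and 2.17%, median 0.81), and of the 48 alpha cell markers 12 fell and 6 rose (25% and 12.5%, median -0.12). The 50 pan-endocrine markers had 6 genes in each direction (12%, median -0.01). Over all tested genes 5.74% fell and 5.43% rose. The difference between lists was not tested. The count of beta cell markers that fell was 13 without mutant preparation 1, and that of alpha cell markers that fell was 7 without mutant preparation 1. The count of rises was 12 without wild-type preparation 3 for the alpha list and 8 without wild-type preparation 3 for the delta list. For the pan-endocrine list the count of rises was 2 without wild-type preparation 1 or wild-type preparation 2, 3 without mutant preparation 1 or mutant preparation 2 and 15 without wild-type preparation 3.

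**Figure D4:**
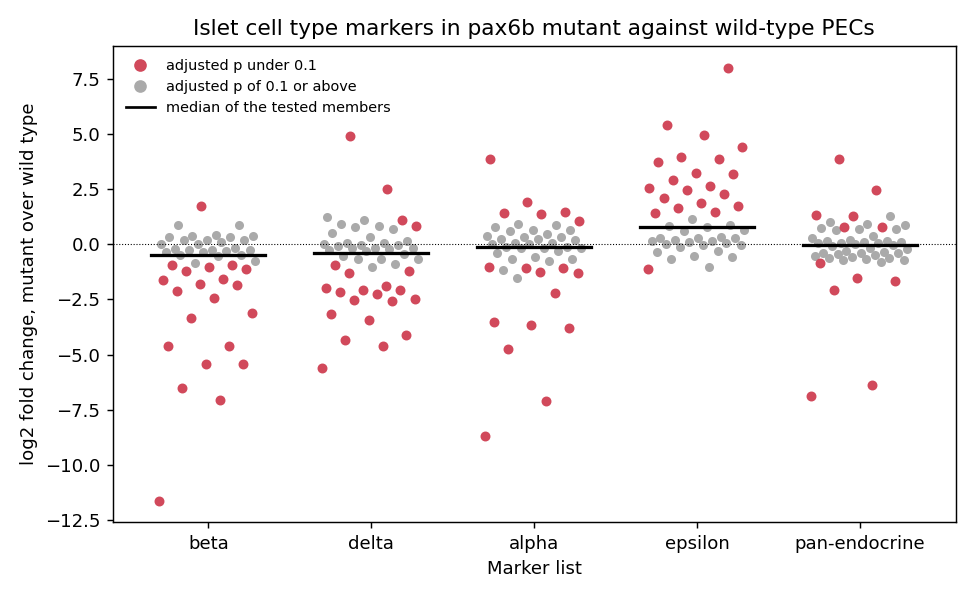
Log2 fold change, mutant over wild type, of every tested member of 5 marker lists, with red points for an adjusted p under 0.1 and a line at the median. The beta and delta lists have their called members mostly below 0 (20 of 21 and 18 of 22) and the epsilon list above it (20 of 21), while the alpha and pan-endocrine lists have them on both sides; ucn3l, the lowest beta point, had no count in mutants.

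Besides ins, pdx1 and ucn3l, the beta cell markers that fell included NDUFA4L2, a mitochondrial protein gene known for its use in beta cells of zebrafish. This gene is named after its values were seen. It was at 926, 1716 and 1903 normalised CPM in wild type and 60.7, 50.5 and 75.9 in mutants (log2 fold change -4.60, standard error 0.36, adjusted p = 5.31e-06). The surface receptor gene rtn4rl2b went from 6.34, 2.73 and 6.44 to 0.0262, 0 and 0.133 normalised CPM (log2 fold change -6.52, standard error 0.83, adjusted p = 3.26e-04). The carbonic anhydrase gene CA7 fell mainly through wild-type preparation 3, with 0.387, 0.461 and 7.73 normalised CPM in wild type and 0.0785, 0.0766 and 0.0333 in mutants. Without that preparation CA7 had too few counts to be tested. The 1 marker that rose, rcan2, an inhibitor of calcineurin, is on the epsilon list as well and went from 24.7, 30.1 and 16.4 to 93.0, 60.1 and 81.9 normalised CPM (log2 fold change 1.73, standard error 0.30, adjusted p = 0.00329). Members that did not pass the test include psma3, psmc6 and psmd8, which encode proteasome subunits.

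Among the delta cell markers, nppal and ptger2a fell most, ahead of sst1.1 and nmba. The gene nppal, of the natriuretic peptide family by its name, was at 3259.5, 2778 and 2036 normalised CPM in wild type and 48.5, 53.8 and 62.3 in mutants (log2 fold change -5.62, standard error 0.33, adjusted p = 1.06e-06). The prostaglandin E receptor gene ptger2a was at 4.08, 4.40 and 9.44 and 0.392, 0 and 0.299 normalised CPM (log2 fold change -4.62, standard error 0.79, adjusted p = 0.00276). A few members of the list went the other way. The cyclooxygenase gene ptgs2a was at 0.0595, 0 and 1.78 normalised CPM in wild type and 19.6, 20.5 and 22.3 in mutants (log2 fold change 4.91, standard error 0.96, adjusted p = 0.0064), and the growth factor gene bmp16 rose by 2.52 on the log2 scale. The mutants were apart from all wild types for each of these 4 genes, and ptgs2a lost its call with no filter on low counts (adjusted p = 0.238).

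The epsilon cell markers that rose most were mboat4, mlnl, ehbp1l1a, plcxd3 and NAT8L. The gene ehbp1l1a was at 2.11, 2.39 and 1.24 normalised CPM in wild type and 57.6, 70.6 and 46.4 in mutants (log2 fold change 4.95, standard error 0.37, adjusted p = 4.63e-06). The phospholipase family gene plcxd3 was at 2.26, 3.23 and 2.39 and 47.8, 54.3 and 66.1 normalised CPM (log2 fold change 4.42, standard error 0.32, adjusted p = 4.05e-06). NAT8L encodes the enzyme that makes N-acetylaspartate, and it went from 61.4, 50.2 and 60.7 to 788, 1182 and 761 normalised CPM (log2 fold change 3.99, standard error 0.30, adjusted p = 5.02e-06). Of the 20 that rose, 18 kept their call whichever library was left out, the exceptions being ghrl and zgc:172120. For the 5 named first, the spread within each group was small beside the change.

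The alpha cell markers went both ways. Double labelling in the study found the members arxa and scinlb in epsilon cells as well as alpha cells. Together with gcgb and slc30a2, the glutaminase gene glsb fell, from 206, 138 and 255 normalised CPM in wild type to 7.59, 4.94 and 9.65 in mutants (log2 fold change -4.75, standard error 0.36, adjusted p = 5.11e-06). The potassium channel accessory gene dpp6a fell from 5.98, 8.89 and 26.1 to 0.837, 0.842 and 1.26 normalised CPM (log2 fold change -3.80, standard error 0.58, adjusted p = 0.00115). In contrast, scinlb, of the gelsolin family of actin-severing proteins, was at 26.6, 22.4 and 163 normalised CPM in wild type and 1083, 1339.9 and 694 in mutants (log2 fold change 3.88, standard error 0.66, adjusted p = 0.00276). Wild-type preparation 3 had more scinlb than the other wild types but less than any mutant, and the call was lost with no filter on low counts (adjusted p = 0.189). The G protein regulator gene rgs5a rose by 1.48 and the GDNF family receptor gene gfra3 by 1.40 on the log2 scale.

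The pan-endocrine markers included pcxb, named above among the largest falls, at 402, 539 and 1309 normalised CPM in wild type and 9.81, 7.12 and 9.78 in mutants (log2 fold change -6.39, standard error 0.48, adjusted p = 5.02e-06). The chromogranin A gene chga, of a protein of hormone granules, rose from 17.3, 27.2 and 57.8 to 191, 231 and 152.6 normalised CPM (log2 fold change 2.49, standard error 0.40, adjusted p = 0.00178). The clusterin gene clu, a secreted chaperone, rose from 15.2, 15.6 and 50.5 to 428, 392 and 389 (log2 fold change 3.89, standard error 0.45, adjusted p = 1.72e-04). The secretogranin gene scg3 fell from 5594, 5364 and 6199 to 2756, 3396 and 3444 normalised CPM. Its call was lost without wild-type preparation 1 (0.181), wild-type preparation 2 (0.17), mutant preparation 1 (0.318) or mutant preparation 2 (0.17).

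Genes of glucose handling fell more often than they rose. Of 39 tested members 10 were lower and 3 higher (25.6% and 7.69%, against 5.74% and 5.43% of all tested genes). Glucose enters glycolysis in beta cells through glucokinase, and pyruvate carboxylase feeds pyruvate into the mitochondrial cycle. The glucokinase gene gck was at 276, 271 and 531 normalised CPM in wild type and 82.0, 103 and 75.3 in mutants (log2 fold change -2.05, standard error 0.32, adjusted p = 0.00136). SLC5A10, of the sodium and sugar cotransporter family, fell from 112, 164 and 398 to 9.79, 8.08 and 10.1 normalised CPM (log2 fold change -4.59, standard error 0.45, adjusted p = 4.50e-05), and the lactate dehydrogenase gene ldha from 309, 123 and 119 to 29.4, 34.9 and 46.6 (log2 fold change -2.31, standard error 0.38, adjusted p = 0.00224). Wild-type preparation 3 had the highest pcxb, SLC5A10 and gck of the wild types, and the mutants were below all 3 wild types. The count of falls was 6 without wild-type preparation 1 or mutant preparation 1.

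In the opposite direction, the phosphofructokinase gene pfkpa rose from 3.39, 2.68 and 4.55 to 15.4, 22.7 and 13.3 normalised CPM (log2 fold change 2.26, standard error 0.38, adjusted p = 0.00249) and the pyruvate kinase gene pkma from 177, 219.8 and 576 to 1038, 971 and 860.4 (log2 fold change 1.56, standard error 0.39, adjusted p = 0.0278). The call of pkma was lost without wild-type preparation 1 (0.105) or wild-type preparation 2 (0.12), and the count of rises was 1 without wild-type preparation 1 or wild-type preparation 2.

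**Figure D5:**
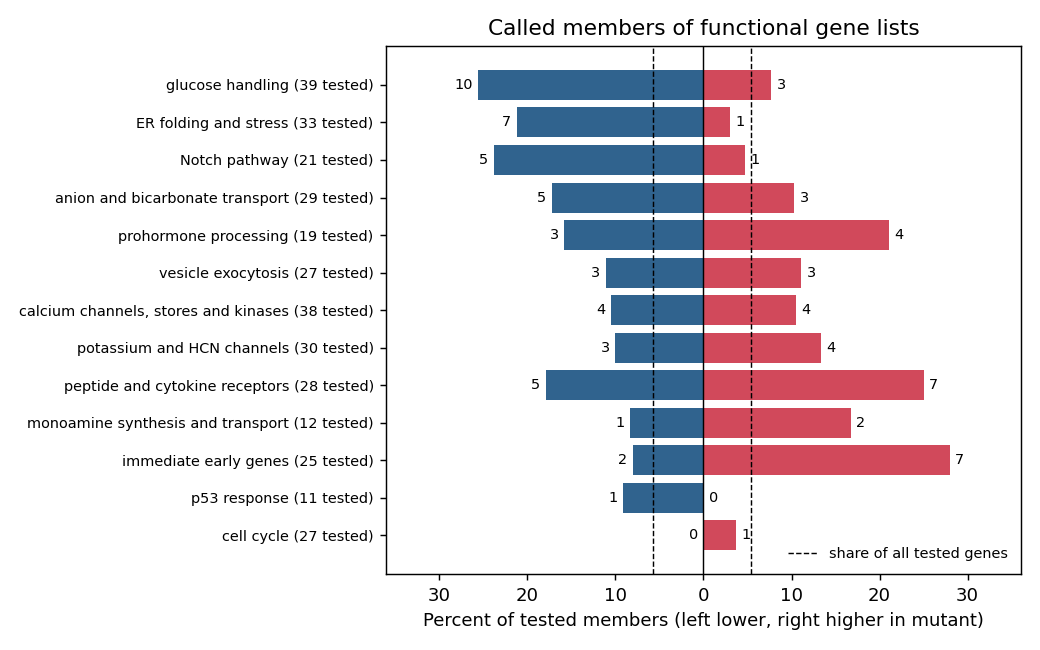
Percent of the tested members of 13 functional gene lists that were lower (blue, to the left) or higher (red, to the right) in mutant PECs at an adjusted p under 0.1, with the number of genes at each bar. Dashed lines mark the shares over all tested genes, 5.74% lower and 5.43% higher; glucose handling, Notch and endoplasmic reticulum genes reach further to the left and immediate early genes further to the right.

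The machinery that makes and releases peptide hormones changed in part. Of 19 tested genes of prohormone processing and granule content, 4 rose and 3 fell. With all 6 samples, both shares were above those of all tested genes, of which 5.43% rose and 5.74% fell. The convertase gene pcsk2, which cuts proglucagon and proinsulin, was at 63.7, 124 and 652 normalised CPM in wild type and 93.0, 46.4 and 17.8 in mutants (log2 fold change -2.42, standard error 0.74, adjusted p = 0.0687). Wild-type preparation 3 was far above all other samples for pcsk2, and the groups overlapped. The call was lost without wild-type preparation 2 (0.195), wild-type preparation 3 (0.322), mutant preparation 1 (0.101), mutant preparation 2 (0.339) or mutant preparation 3 (0.183). The receptor-type phosphatase gene ptprnb, whose family members sit in granule membranes, rose from 32.5, 31.9 and 74.3 to 112, 116 and 120.4 normalised CPM (log2 fold change 1.32, standard error 0.33, adjusted p = 0.0275), with the call lost without wild-type preparation 1 (0.128) or wild-type preparation 2 (0.141). In this list the count of rises was 1 without wild-type preparation 1 or wild-type preparation 2 and 2 without mutant preparation 1 or mutant preparation 2, and the count of falls was 1 without wild-type preparation 2, mutant preparation 1 or mutant preparation 2.

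Of 27 tested genes of vesicle exocytosis, 3 fell and 3 rose (11.1% each, against 5.74% and 5.43% of all tested genes). The synaptotagmin gene syt5b, of the calcium sensor family, fell from 6.01, 5.95 and 16.7 to 1.18, 1.15 and 0.466 normalised CPM (log2 fold change -3.36, standard error 0.57, adjusted p = 0.00255). The complexin gene cplx2 fell from 371, 256 and 171 to 88.1, 95.4 and 83.5 (log2 fold change -1.58, standard error 0.30, adjusted p = 0.00569), while its paralog cplx2a was at 203, 217 and 228 in wild type and 419.8, 481 and 327 in mutants (log2 fold change 0.92, standard error 0.25, adjusted p = 0.0434). Both falls held whichever library was left out, and the rise of cplx2a did not, being lost without wild-type preparation 1 (0.176), wild-type preparation 2 (0.168), mutant preparation 1 (0.16) or mutant preparation 2 (0.168). The count of rises was 0 without wild-type preparation 1 or mutant preparation 1, 1 without wild-type preparation 2 or mutant preparation 2 and 5 without wild-type preparation 3.

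Of 33 tested genes of the endoplasmic reticulum, 7 fell and 1 rose (21.2% and 3.03%, against 5.74% and 5.43% of all tested genes). The members that fell act mainly in bringing new peptides into the reticulum. They are the translocon subunits SEC61G, sec61b and sec61a1, the translocon-associated proteins ssr2, ssr3 and ssr4 and the signal peptidase subunit SPCS1. All 7 are named, which for sec61a1 and ssr2 goes beyond the naming rule. The calls of SPCS1, sec61a1, ssr3 and ssr4 were lost without at least 1 library. SSR1, spcs2 and spcs3, of the same complexes, did not pass the test. The gene sec61b was at 419, 476 and 301 normalised CPM in wild type and 158, 132 and 200.0 in mutants (log2 fold change -1.28, standard error 0.28, adjusted p = 0.0122). SEC61G was at 138, 164 and 64.5 and 36.3, 30.4 and 49.0 normalised CPM (log2 fold change -1.66, standard error 0.35, adjusted p = 0.00965), and the groups were apart for both. The stress factor gene ddit3, the 1 that rose, overlapped between the groups (10.95, 14.6 and 45.0 against 66.6, 87.5 and 41.9 normalised CPM), and its call was lost without wild-type preparation 1 (0.249), wild-type preparation 2 (0.277), mutant preparation 1 (0.194) or mutant preparation 2 (0.29). The count of falls was 3 without wild-type preparation 2 or mutant preparation 1, 4 without wild-type preparation 1 or mutant preparation 2 and 11 without wild-type preparation 3.

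Genes of excitability and calcium signalling changed in both directions. Of 38 tested genes of calcium channels, stores and kinases 4 rose and 4 fell, and of 30 tested potassium and HCN channel genes 4 rose and 3 fell. These are 10.5% each for calcium and 13.3% and 10.0% for potassium and HCN channels, against 5.43% and 5.74% of all tested genes. The ryanodine receptor gene ryr2b, a channel that releases calcium from stores, was at 14.0, 8.80 and 7.97 normalised CPM in wild type and 0.183, 0.804 and 0.266 in mutants (log2 fold change -4.64, standard error 0.60, adjusted p = 3.61e-04). The kinase gene camk2d1 fell from 17.1, 13.5 and 58.6 to 2.15, 3.45 and 2.60 normalised CPM (log2 fold change -3.45, standard error 0.54, adjusted p = 0.00138), while camk4, also of the calcium and calmodulin-dependent kinases, rose from 24.8, 23.4 and 19.8 to 53.5, 85.5 and 71.1 (log2 fold change 1.63, standard error 0.28, adjusted p = 0.00267). All 3 were apart between the groups. In the calcium list the count of rises was 1 without wild-type preparation 2 or mutant preparation 1 and 7 without mutant preparation 3, and the count of falls was 2 without wild-type preparation 1, wild-type preparation 2, mutant preparation 1 or mutant preparation 2.

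Among potassium channels, the inward rectifier gene kcnj19a, which is on the beta marker list, was at 19.6, 38.6 and 104 normalised CPM in wild type and 4.92, 5.86 and 5.02 in mutants (log2 fold change -3.37, standard error 0.51, adjusted p = 0.00118). The background channel gene kcnk3b fell from 32.1, 37.1 and 84.5 to 8.32, 12.1 and 12.1 (log2 fold change -2.24, standard error 0.39, adjusted p = 0.0028). The sulfonylurea receptor gene abcc9, an accessory subunit of ATP-sensitive potassium channels, rose from 0.595, 1.13 and 0.854 to 6.096, 4.33 and 3.13 normalised CPM (log2 fold change 2.40, standard error 0.51, adjusted p = 0.0102). Wild-type preparation 3 had the highest kcnj19a and kcnk3b of all samples, and the mutants were below the other wild types too. The count of rises was 1 without wild-type preparation 2 and 2 without wild-type preparation 1, mutant preparation 1 or mutant preparation 2.

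Of 28 tested receptor genes for peptides and cytokines, 7 rose and 5 fell. Both are larger shares than over all tested genes, where 5.43% rose and 5.74% fell. The glucagon receptor gene gcgra fell from 47.0, 66.0 and 47.0 normalised CPM in wild type to 0.654, 1.30 and 1.03 in mutants (log2 fold change -5.75, standard error 0.38, adjusted p = 2.04e-06). The ghrelin receptor gene ghsra rose from 1.52, 1.51 and 5.70 to 17.8, 10.3 and 23.9 (log2 fold change 2.55, standard error 0.55, adjusted p = 0.0113), and the PACAP receptor gene adcyap1r1b from 1.46, 1.22 and 1.07 to 9.52, 5.51 and 6.75 normalised CPM (log2 fold change 2.54, standard error 0.44, adjusted p = 0.00291). The ligands of these 3 receptors are encoded by genes described above: gcga, gcgb, ghrl and adcyap1b. The neuropeptide Y receptor gene npy8br rose by 2.82 on the log2 scale. The count of rises was 4 without wild-type preparation 1 or mutant preparation 2, and the count of falls was 2 without mutant preparation 2 and 3 without mutant preparation 1 or mutant preparation 3.

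Genes of anion and bicarbonate transport moved in both directions, with 5 of 29 tested members lower and 3 higher. These are 17.2% and 10.3%, against 5.74% and 5.43% of all tested genes. In the SLC26 family of anion exchangers, slc26a2 fell from 46.1, 36.01 and 21.5 normalised CPM in wild type to 1.91, 2.41 and 1.497 in mutants (log2 fold change -4.15, standard error 0.40, adjusted p = 3.22e-05) and slc26a3.2 from 130.5, 86.0 and 207.8 to 37.8, 16.2 and 17.4 (log2 fold change -2.57, standard error 0.40, adjusted p = 0.00148), while slc26a5 rose from 144, 111 and 162 to 592, 492 and 499 (log2 fold change 1.93, standard error 0.26, adjusted p = 5.73e-04). The carbonic anhydrase gene ca6, on the epsilon list, rose from 25.5, 30.1 and 31.3 to 231, 299.6 and 254 normalised CPM (log2 fold change 3.17, standard error 0.27, adjusted p = 9.91e-06). All 4 held whichever library was left out.

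Of 12 tested genes of monoamine synthesis and transport, tph1b and ddc rose and slc18a2 fell. Rises made 16.7% and falls 8.33%, against 5.43% and 5.74% of all tested genes. The call of ddc, an enzyme gene of the same pathway, was lost without wild-type preparation 2 (0.167) or mutant preparation 3 (0.109), which leaves 1 rise. Tryptophan hydroxylase, encoded by tph1b, starts serotonin synthesis. Its gene was at 15.5, 12.1 and 20.7 normalised CPM in wild type and 61.0, 67.2 and 66.2 in mutants (log2 fold change 2.01, standard error 0.29, adjusted p = 7.44e-04). The vesicular monoamine transporter gene slc18a2 went from 1.91, 4.95 and 3.95 to 0.419, 0.613 and 0.599 (log2 fold change -2.73, standard error 0.56, adjusted p = 0.00878). The samples of each group were close together for tph1b.

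Of 21 tested Notch pathway genes 5 fell and 1 rose, with a median log2 fold change of -1.06. The shares were 23.8% and 4.76%, against 5.74% and 5.43% of all tested genes. Notch signalling keeps pancreatic progenitors from endocrine differentiation. The target gene her15.1 was at 68.3, 21.2 and 27.7 normalised CPM in wild type and 5.13, 7.199 and 14.3 in mutants (log2 fold change -2.14, standard error 0.48, adjusted p = 0.0151). It and her4.1 have near-identical neighbours in the genome, so their counts are uncertain. The receptor gene notch2 was at 3.84, 5.03 and 1.93 and 8.06, 10.8 and 12.3 normalised CPM (log2 fold change 1.54, standard error 0.43, adjusted p = 0.0465), and its call was lost without wild-type preparation 1 (0.121), mutant preparation 2 (0.121) or mutant preparation 3 (0.105). The count of falls was 1 without mutant preparation 1 or mutant preparation 3 and 3 without wild-type preparation 1 or wild-type preparation 2.

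Of 27 tested cell cycle genes 1 was called (3.70%, against 11.2% of all tested genes), the topoisomerase gene TOP2A, which rose. The list summed to 177.6 to 291.5 normalised CPM in wild type and 176.3 to 267.7 in mutants. The call of TOP2A was lost without wild-type preparation 1 (0.202), wild-type preparation 2 (0.211), mutant preparation 1 (0.288) or mutant preparation 2 (0.216). Of 11 tested p53 response genes 1 was called (9.09%, near the share of all tested genes). This gene, SESN1, fell by 1.65 on the log2 scale (adjusted p = 0.0134).

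Of 25 immediate early genes, which respond to stimulation within minutes, 7 rose and 2 fell (28% and 8.0%). Over all tested genes the shares were 5.43% and 5.74%. The gene npas4a, a calcium-responsive transcription factor gene, rose from 11.8, 4.70 and 7.90 normalised CPM in wild type to 50.8, 80.9 and 26.4 in mutants (log2 fold change 2.69, standard error 0.44, adjusted p = 0.00206). For egr1 the values were 287, 119 and 559.7 in wild type and 1861, 1096 and 740.2 in mutants (log2 fold change 1.94, standard error 0.49, adjusted p = 0.0274), with the call lost without wild-type preparation 1 (0.129), mutant preparation 1 (0.137) or mutant preparation 2 (0.104). The summed level of the list was 6967, 5779 and 9797 normalised CPM in wild type and 10116, 11811 and 11512 in mutants. The count of rises was 2 without mutant preparation 2, 3 without wild-type preparation 1 or wild-type preparation 2, 4 without mutant preparation 1 and 13 without wild-type preparation 3. Neither fall held: that of atf3 was lost without wild-type preparation 1 (0.177), wild-type preparation 2 (0.314), mutant preparation 1 (0.247) or mutant preparation 3 (0.166), and that of jund without wild-type preparation 1 (0.179), wild-type preparation 2 (0.206), mutant preparation 1 (0.22) or mutant preparation 3 (0.113).

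Genes on the chromosome of pax6b, which can differ between the lines in haplotype, were counted separately. Of the 15222 tested genes that could be placed by symbol, 803 lie on the chromosome of pax6b, and 123 of these were called (15.3%, against 11.7% of all placed genes), 56 higher and 67 lower. Within 100 protein-coding genes on either side of pax6b, 12 of 103 tested genes were called (11.7%).

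Whether the mutation acts alike in gut cells was tested by the interaction of genotype and tissue over 12 samples, with 1 wild-type EEC sample left out. Of 21067 genes, 755 (3.58%) had an effect in PECs that differed from that in EECs at 4 days of age, with 394 higher and 361 lower in PECs. Without mutant PEC preparation 1 the count was 503. Tissue, age and dissociation go together here and cannot be told apart.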

How the data were processed

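RNA of sorted cells was made into libraries by Smart-seq2 and Nextera. The authors mapped the reads with STAR 2.5.4b to GRCz11, the build named in the submitters' processing notes, and deposited 1 table per sample of read counts per gene, as STAR writes them: uniquely mapped reads only. The unstranded count column was used, so reads of overlapping or antisense genes cannot be told apart, nor can reads of near-identical copies be placed. PCR duplicates cannot be recognised, and floors cover counting error only. Summary lines of the tables for reads on no gene were left out of the totals.

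The 6 PEC samples were fitted with edgeR 4.0.16 in R 4.3.3: TMM scaling, the default filter on low counts, a robust quasi-likelihood fit and test with genotype as the only term, and Benjamini-Hochberg adjustment over all 18698 tested genes, with an adjusted p under 0.1 as a call. Levels are CPM of the TMM-scaled library total, and fold changes are the fitted ones. Each standard error is the size of the log2 fold change divided by the square root of the test's F value. For genes near 0 in a group it can understate the spread. The log2 fold change of ptgs2a, for example, was 4.91 and reached 9.08 with 1 library left out. The interaction of tissue and genotype was fitted on 12 samples. The fits were tested on simulated data. DESeq2 1.42.0, RLE scaling, TMM without the 50 highest genes, other filters, a threshold of 0.05, a fit of both tissues, a replicate block and leaving out each library were the alternatives.

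The files hold gene IDs only. Of 31901 IDs, 5831 were named from tables of the study and 23437 from a reference list of gene names; IDs without a zebrafish symbol carry that of the human ortholog, in capitals. RefSeq's order of genes served only to find the chromosome and neighbours of pax6b. Of 883 entries in 32 gene lists 827 matched, 8 by a synonym and 79 by the human ortholog. The 5 islet marker lists are those of the study, which drew them from published data on other samples. Members and lists were chosen with earlier results of these data known. Named genes are pax6a and pax6b, and hormone and transcription factor genes with a mean of at least 5 normalised CPM in a group. The 12 largest changes in each direction (called, with a symbol, at least 10 normalised CPM in a group and no overlap) are named too. Of every other list, up to 5 largest called members in each direction are named. Exceptions are marked. Members named only as not passing the test or only as losing a call also lie outside this rule. A gene withheld here is not reported.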

Additional observations from a re-analysis of the deposited data

Results flagged for a closer look

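The effect of the mutation differed between PECs at 27 hpf and EECs at 4 days in 755 of 21067 genes (3.58%), by edgeR's test of the interaction at an adjusted p under 0.1, and 2696 genes had an unadjusted p under 0.05. Tissue and age cannot be told apart in this difference, which is given below as the log2 fold change in PECs minus that in EECs. Among 23 peptide hormone genes tested in both tissues 7 differed, and among 40 endocrine transcription factor genes 10 did.

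Among the hormone genes, the difference was -8.29 for ins (adjusted p = 0.00265), with -7.09 in PECs and 1.18 in EECs. The EEC effects come from a fit of the EEC samples alone, in which ins did not pass the test (adjusted p = 0.639). In the values of the study, ins was far lower in EECs of both genotypes than in wild-type PECs. There was thus little ins RNA in EECs that could fall. For pyya the difference was -4.11 (adjusted p = 2.98e-05), with -5.08 and -0.97. For sst2 it was -4.04 (adjusted p = 5.45e-04), with -2.17 and 1.87, so that sst2 fell in PECs and rose in EECs. Its EEC change passed the test here (adjusted p = 0.0347). The study's Results name sst2 among the hormones affected in both cell types, while its Discussion describes no significant effect on sst2 in the gut. For gcgb the difference was -2.40 (adjusted p = 0.0545), with -8.68 and -6.30, a fall in both tissues. For pyyb it was 2.44 (adjusted p = 8.56e-04), with -0.87 and -3.33. For mlnl it was 3.02 (adjusted p = 0.0013), with 5.43 and 2.41, a rise in both tissues, and for insl5a 4.1 (adjusted p = 0.00272), with 3.69 and -0.39. The EEC change of insl5a did not pass the test (adjusted p = 0.751). By the study's values, wild-type PECs had far less mlnl and pyyb RNA than wild-type EECs.

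Among the transcription factor genes, the difference was -5.60 for nkx6.2 (adjusted p = 1.81e-05; EEC effect 0.34), -3.77 for tbx2b (0.0252; 1.16) and -1.99 for pdx1 (0.042; -3.45), which fell in both tissues. It was -1.77 for cdx1b (0.0259) and -1.22 for hnf1ba (0.0699). The EEC effects of nkx6.2 and tbx2b did not pass the test (adjusted p = 0.81 and 0.589). In the values of the study, nkx6.2 was also far lower in EECs of both genotypes than in wild-type PECs. The effect was higher in PECs by 1.58 for arxa (0.0781), 1.98 for insm1b (0.0151), 2.96 for gata6 (0.00577), 2.01 for etv1 (0.00178; EEC effect -1.91) and 2.77 for MEIS1 (0.0205; EEC effect -1.59).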

How the results depend on the processing

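Leaving out 1 library moved the count of calls between 1148 and 3873, of rises between 553 and 2049 and of falls between 595 and 1824, highest without wild-type preparation 3 and lowest without mutant preparation 1. For the difference between tissues the count lay between 503 and 1017. The total of called list members, 238, lay between 161 and 291, and the difference in hormone share between -6.22 and -5.64 percentage points (exact permutation p = 0.2 in each case, the smallest possible with 5 samples). Deviations of same-numbered preparations from their group means had correlations of -0.0482, -0.128 and -0.138. Deviations from a mean of only 3 samples are tied to each other. These correlations therefore cannot decide whether the numbers pair the samples. A replicate block gave 1199 calls, 567 higher and 632 lower. At a threshold of 0.05, 661 genes were higher, and 480 differed between tissues. DESeq2 called 2940 of 21344 genes with an adjusted p, among them 2068 of the 2089. RLE scaling called 2067 of the 2089, the fit of both tissues 1628 and the block 1181, and none changed sign under any of these. Of 172 named called genes 104 kept their call without each library in turn and 101 under every alternative, and none changed sign. These counts include CA7, which could not be tested without wild-type preparation 3. Among 22 not called, 3 changed sign: pax6b without wild-type preparation 3 (-0.21) or mutant preparation 3 (-0.38; range up to 0.39), etv1 without wild-type preparation 2 (-0.030; range up to 0.23), and foxa1 without wild-type preparation 1 (-0.06) or 2 (-0.17) or mutant preparation 3 (-0.19; range up to 0.54); the cause was not tested. Of 975 recomputed counts of list members 829 stayed within 1.5 times. Lists with no called member, whose count of 0 stayed 0, are among these 829. The share therefore does not measure how stable the list counts given above are. The keratin call of krt91 was lost without mutant preparation 2 (0.953) or any 1 wild-type preparation (0.252 to 0.541). That of cyt1 was lost without mutant preparation 1 (0.128), mutant preparation 2 (0.926) or any 1 wild-type preparation (0.287 to 0.582). Both were also lost with no filter on low counts.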

Other observations

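Gene families outside the lists above were counted by symbol, after their values had been seen, and so have no test as families. Genes of cytosolic ribosomal proteins were lower in mutants in 79 of 80 cases, and 28 passed the test, none of them higher (35%, against 5.74% of all tested genes; median log2 fold change -0.76). Their summed level was 84990, 95658 and 52814 normalised CPM in wild type and 47793, 48766 and 43103 in mutants. Wild-type preparation 3 was thus nearer to the mutants than to the other wild types. For rps20, 2815, 2910.0 and 1017 normalised CPM in wild type stood against 969, 934 and 1088 in mutants (log2 fold change -1.17, adjusted p = 0.0687), and the groups overlapped. Nuclear genes of the respiratory chain had 5 of 101 tested members lower (4.95%, near the 5.74% of all tested genes) and none higher. The beta cell marker NDUFA4L2 is among these 5. Negative log2 fold changes were found for 76 of the 101, with a median of -0.37 against 0.017 over all tested genes.

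Of 17 tested acetylcholine receptor genes 7 rose and 3 fell (41.2% and 17.6%, against 5.43% and 5.74% of all tested genes). The muscarinic receptor gene chrm2b rose from 2.17, 1.13 and 0.722 to 19.7, 18.8 and 11.8 normalised CPM (log2 fold change 3.65, standard error 0.48, adjusted p = 4.10e-04), and the nicotinic subunit gene chrna6 from 13.4, 15.0 and 26.2 to 45.8, 61.8 and 61.8 (log2 fold change 1.63, standard error 0.32, adjusted p = 0.00631). Of 29 glutamate receptor genes 8 rose and 3 fell (27.6% and 10.3%). The metabotropic receptor gene grm2a rose from 0.0595, 0.168 and 0 to 6.54, 2.37 and 0.765 normalised CPM (log2 fold change 5.70, standard error 1.11, adjusted p = 0.00616), whereas the AMPA receptor gene gria3a fell from 4.26, 7.63 and 11.3 to 0.889, 0.766 and 0.665 (log2 fold change -3.31, standard error 0.50, adjusted p = 0.00111). Of 7 adrenoceptor genes 3 rose and 1 fell (42.9% and 14.3%): the alpha-2 receptor gene adra2a was at 4.14, 4.23 and 7.10 in wild type and 17.7, 13.9 and 35 in mutants, and the beta-1 receptor gene adrb1 at 0.446, 4.99 and 7.69 and 0, 0 and 0.299 normalised CPM.

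Among 75 tested cadherin, protocadherin and contactin genes 12 rose and 5 fell (16% and 6.67%, against 5.43% and 5.74% of all tested genes, so that the share of falls is near that of all genes). PCDH10 rose from 4.17, 2.05 and 4.02 to 32.6, 42.4 and 24.1 normalised CPM (log2 fold change 3.26, standard error 0.38, adjusted p = 1.82e-04), while the adhesion gene cntn1b, a contactin, fell from 49.1, 27.5 and 23.2 to 5.91, 5.71 and 6.32 (log2 fold change -2.47, standard error 0.35, adjusted p = 7.40e-04). Of 17 sodium-potassium pump genes 5 fell (29.4%, against 5.74% of all tested genes) and none rose, and their summed level was 1867 to 2121 normalised CPM in wild type and 1252 to 1497 in mutants. The nuclear receptor gene rorcb fell from 80.0, 98.5 and 76.0 to 3.48, 2.49 and 2.76 normalised CPM (log2 fold change -4.86, standard error 0.31, adjusted p = 1.70e-06).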
